A study of Homo sapiens with 4 samples.

Results

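The 10 genes described here make, carry, sense or break down retinoic acid, or respond to it: ALDH1A1, ALDH1A2, ALDH1A3, DHRS3, CRABP2, CYP26B1, RARA, RARB, RARG and RARRES1. They were chosen by symbol from the 43714 genes of the count table, and all 10 passed the filter on low counts. Their levels were compared between sister lines of MDA-MB-231, an established line of human breast cancer of the triple-negative type, without oestrogen receptor, progesterone receptor or HER2 amplification. Both lines carry the stably transfected 7TGP reporter, in which 7 TCF sites drive EGFP when beta-catenin binds the TCF/LEF factors at the end of the canonical Wnt pathway, and were selected with 3 ug/mL puromycin. Reporter-positive cells (MDA-MB-2317TGP-POS, the Wnt-positive line) were over 80% EGFP-positive after 8 rounds of sorting and regrowth. Reporter-negative cells (MDA-MB-2317TGP-NEG, labelled as the control, the Wnt-negative line) were over 95% EGFP-negative after the same number of rounds. RNA of both lines, grown in medium with 10% serum, was sequenced in 2 libraries each, all under a single batch label. The labels name no added retinoid.

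Retinoic acid is made from vitamin A (retinol) in a pair of oxidation steps, first to retinal by retinol dehydrogenases and then to retinoic acid by the retinal dehydrogenases of the ALDH1A family. DHRS3 runs the first step backwards and so limits supply, CRABP2 carries retinoic acid to the nucleus, and CYP26 enzymes such as CYP26B1 oxidise it for removal. The receptors RARA, RARB and RARG bind DNA with a retinoid X receptor (RXR) and change transcription when retinoic acid binds. RARB is itself a well-known direct target of the pathway, and its loss is common in breast cancer, while ALDH1A enzyme activity is used as a marker of stem-like breast cancer cells.

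In the reporter-positive line RARB rose 2.19-fold, CYP26B1 fell to 0.656 of its reporter-negative level, and ALDH1A3 rose 1.33-fold, the last by a call that several other processing choices did not give. The other 7 genes did not pass the threshold (edgeR's quasi-likelihood test, Benjamini-Hochberg adjusted p under 0.05 over 30952 genes). Thus 2 of 10 rose and 1 fell, where 22.4% of all tested genes were called, 11.6% as higher and 10.9% as lower, so the share of the 10 that was called stands near that of genes at large. Their median log2 fold change was -0.08, and that of all tested genes was -0.0046. For 7 of the 10 the libraries of the lines did not overlap, which also held for 57.7% of all tested genes.

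The start regions of the 3 genes past the threshold are shown because that of RARB holds a match to a known type of retinoic acid response element. That type is a direct repeat of a 6-base receptor site with a spacer of 5 bases, called DR5. The sequences are the 250 bases before a RefSeq transcript start (GRCh38.p14), printed on the gene's strand with the DR5 match in capitals.
RARB, chr3:25428013-25428262, forward strand: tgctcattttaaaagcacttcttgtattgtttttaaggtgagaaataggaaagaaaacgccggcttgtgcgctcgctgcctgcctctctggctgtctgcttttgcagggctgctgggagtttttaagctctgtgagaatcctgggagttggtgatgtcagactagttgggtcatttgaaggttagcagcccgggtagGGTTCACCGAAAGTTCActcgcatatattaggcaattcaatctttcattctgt
CYP26B1, chr2:72147863-72148112, reverse strand: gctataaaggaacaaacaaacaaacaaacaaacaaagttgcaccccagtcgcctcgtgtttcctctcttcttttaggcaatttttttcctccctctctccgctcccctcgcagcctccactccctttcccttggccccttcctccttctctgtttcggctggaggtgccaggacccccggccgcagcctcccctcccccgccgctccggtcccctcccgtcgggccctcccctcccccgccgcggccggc
ALDH1A3, chr15:100879581-100879830, forward strand: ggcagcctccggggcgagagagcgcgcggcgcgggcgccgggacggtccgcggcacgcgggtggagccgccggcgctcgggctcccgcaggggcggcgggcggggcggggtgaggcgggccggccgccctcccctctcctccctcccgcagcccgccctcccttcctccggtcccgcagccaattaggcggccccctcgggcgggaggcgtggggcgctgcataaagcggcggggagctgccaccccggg

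The RARB match, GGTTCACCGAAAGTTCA, covers bases -53 to -37 from that start and joins the 6-base sites GGTTCA and AGTTCA. RefSeq gave 18 start windows for the 10 genes, 4 of them for RARB, and each held 250 bases before and 50 after the start. DR5 was found in 1 of the 18, the RARB window shown, against 0.0883% of 35116 windows of the same length in all genes. RARB is a well-known direct target of the pathway, so this match was no independent finding, and enrichment was not tested. The DR1 and DR2 repeats, which have shorter spacers, were found in none of the 18 (0.131% and 0.0399% of all windows). A single AGGTCA site was found in 3 windows, of RARA, RARB and DHRS3, against 13.8% of all windows. The TCF motif CTTTGAT was in none of the 18 and in 2.62% of all windows. All motifs were searched on both strands. The RARB window with the AGGTCA site was not the window with the DR5 match. The printed RARB sequence had 46% G and C and 7 CpG pairs, that of CYP26B1 62.8% and 16, and that of ALDH1A3 82.4% and 38, the last with 6 copies of the GC box GGGCGG. A match describes the letters of a window and shows neither binding nor a cause.

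Of the retinal dehydrogenase genes, ALDH1A3 had the most counts per kb and ALDH1A1 the fewest in every library. ALDH1A3 (ENSG00000184254, chromosome 15, 100877714 to 100916626 on GRCh38) had 259 and 268 counts in reporter-negative and 329 and 315 in reporter-positive libraries. In CPM, the count scaled to a common library size with TMM factors, the values were 4.08 and 4.36 against 5.24 and 6.01, so the lines did not overlap. Its log2 fold change was 0.41 (standard error 0.14), with a 95% interval of 0.12 to 0.71 (edgeR, Benjamini-Hochberg adjusted p = 0.0398). The call was lost with scaling to total counts (adjusted p = 0.157, edgeR), with DESeq2 (adjusted p = 0.110), and in edgeR fits without reporter-negative library 1, reporter-negative library 2 or reporter-positive library 2 (adjusted p = 0.274, 0.128 and 0.184).

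The ALDH1A3 count cannot be assigned to that gene alone. Deposited counts cover whole gene spans on both strands, and a read counts at each gene that it overlaps. ALDH1A3-AS1, an antisense gene that overlaps 23.8 kb of the span, had 89.6% as many counts as ALDH1A3, and itself rose from 3.59 ± 0.131 to 5.25 ± 0.696 CPM (SD, n = 2), with an edgeR adjusted p (Benjamini-Hochberg) of 0.0109. ENSG00000272639, on the same strand, had 64.9% as many and did not pass (3.24 ± 0.370 and 3.08 ± 0.196 CPM; SD, n = 2). In each of the 4 libraries the counts of the overlapping genes came to more than those of ALDH1A3. They include reads that lie outside the ALDH1A3 span or count at more than 1 of these genes, so the number of reads from ALDH1A3 alone cannot be had by subtraction.

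ALDH1A2 (ENSG00000128918, chromosome 15, 57953424 to 58497866), the enzyme best known from the embryo, had 277 and 335 counts in reporter-negative and 312 and 266 in reporter-positive libraries. At 4.36 and 5.45 against 4.97 and 5.08 CPM the lines overlapped. Its log2 fold change of 0.03 had a 95% interval of -0.27 to 0.34, which leaves room for a change of up to 1.26-fold upward or to 0.830 of the level. The span is 544 kb long and holds the water channel gene AQP9 and part of the lipase gene LIPC, which had 34.96% as many counts. ALDH1A1 (ENSG00000165092, chromosome 9, 72900662 to 73080442), the isoform most often linked to stem-like cells, was low, with 37, 34, 24 and 27 counts. These counts equal 0.583 and 0.554 CPM in reporter-negative and 0.382 and 0.515 CPM in reporter-positive libraries. The lines did not overlap, but the log2 fold change of -0.35 had a 95% interval of -1.10 to 0.40, so a change of moderate size could not be seen at this depth (edgeR, Benjamini-Hochberg adjusted p = 0.567).

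Expressed per kb of gene span, ALDH1A3 made up 89.9% ± 0.540 of the sum over the 3 genes in the reporter-negative and 92.5% ± 0.282 in the reporter-positive line (SD, n = 2). Per kb of annotated exon its share was 48.8% ± 1.49 and 56.8% ± 0.996 (SD, n = 2), followed by ALDH1A2 at 37.8% ± 3.01 and 34.1% ± 2.20. ALDH1A3 thus led by either length, but by how much depended on it, since intron reads count too. With 2 libraries against 2 an exact permutation test of these shares could not reach 0.05, and none was made. ALDH1A3's share includes reads of ALDH1A3-AS1.

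**Figure D1:**
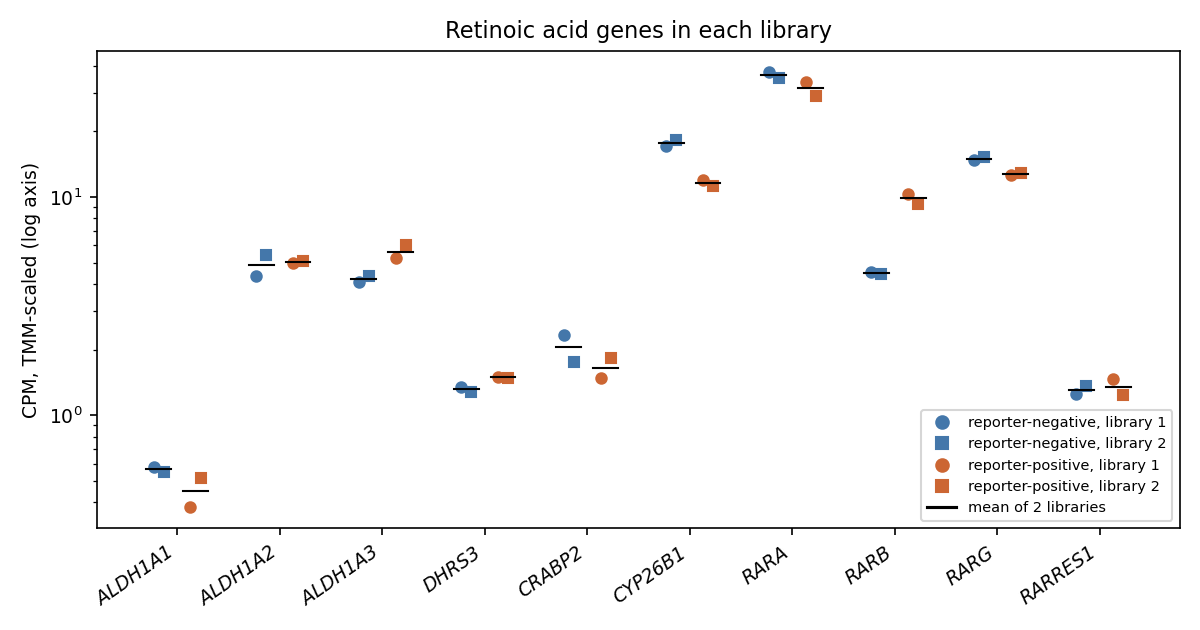
TMM-scaled CPM (log axis) of the 10 genes in each library, circles for library 1 and squares for library 2 of a line, blue for reporter-negative and orange for reporter-positive, with bars at the mean of 2 libraries. RARB is near 4.5 CPM in both blue libraries and at 9.33 and 10.4 CPM in the orange ones, CYP26B1 is lower in orange, and ALDH1A1 lies below 1 CPM throughout.

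DHRS3 and CRABP2, the reductase and the carrier, showed no difference past the threshold. DHRS3 (ENSG00000162496, chromosome 1, 12567910 to 12617731) had 86 and 79 counts in reporter-negative and 94 and 78 in reporter-positive libraries. At 1.35 and 1.29 against 1.497 and 1.489 CPM its reporter-positive libraries were the higher ones, with a log2 fold change of 0.18 and a 95% interval of -0.30 to 0.65 (edgeR, Benjamini-Hochberg adjusted p = 0.666). CRABP2 (ENSG00000143320, chromosome 1, 156699606 to 156705816) had 149 and 108 against 93 and 96 counts, or 2.35 and 1.76 against 1.48 and 1.83 CPM, and the lines overlapped. Its log2 fold change was -0.32 with a 95% interval of -0.77 to 0.14. An antisense gene, ENSG00000285570, had 96.6% as many counts as CRABP2. That gene also extends beyond CRABP2, so the reads of CRABP2 alone cannot be had by subtraction, and its own level is uncertain in both lines.

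CYP26B1 (ENSG00000003137, chromosome 2, 72129238 to 72148038), the enzyme that clears retinoic acid, fell in the reporter-positive line. It had 1091 and 1118 counts in reporter-negative and 751 and 588 in reporter-positive libraries, or 17.2 and 18.2 against 11.96 and 11.22 CPM. Both reporter-positive libraries lay well below both reporter-negative ones. The log2 fold change was -0.61 (standard error 0.09), with a 95% interval of -0.80 to -0.42 (edgeR, Benjamini-Hochberg adjusted p = 3.20e-05). No other counted gene overlaps its span. The call held under all 11 other choices of scaling, filter, tool, block and left-out library, with log2 fold changes from -0.69 to -0.57. Of its relatives, CYP26A1 had 1, 2, 2 and 0 counts and was too low to test. CYP26C1 had 14, 9, 19 and 21 counts and did not pass (0.183 ± 0.0523 and 0.352 ± 0.0695 CPM; SD, n = 2), with an edgeR adjusted p (Benjamini-Hochberg) of 0.202, and it overlaps ENSG00000285846, which had as many counts.

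RARB (ENSG00000077092, chromosome 3, 25174332 to 25597932), the receptor gene with the DR5 match, had 288 and 274 counts in reporter-negative and 651 and 489 in reporter-positive libraries. In CPM the values were 4.54 and 4.46 against 10.4 and 9.33. The lowest reporter-positive library stood above the highest reporter-negative one by more than the spread within either line. Its log2 fold change was 1.13 (standard error 0.12), with a 95% interval of 0.88 to 1.39 (edgeR, Benjamini-Hochberg adjusted p = 5.94e-07), and 3.96% of tested genes changed more in either direction. Under the 11 other choices the log2 fold change lay between 1.05 and 1.20, and each gave a call. TOP2B, a topoisomerase gene with many more counts, shares only the last 28 bases of the span and stood at 182 ± 2.45 and 162 ± 4.88 CPM (SD, n = 2), lower in the line where RARB was higher. The counts cover the 424 kb span and do not show which of the RARB starts was used.

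RARA and RARG, the receptors with more counts than RARB, were lower in the reporter-positive line without passing the threshold. RARA (ENSG00000131759, chromosome 17, 40309192 to 40357643) had 2361 and 2165 counts in reporter-negative and 2119 and 1525 in reporter-positive libraries. At 37.2 and 35.2 against 33.7 and 29.1 CPM the lines did not overlap, and the log2 fold change was -0.20 with a 95% interval of -0.37 to -0.03 (edgeR, Benjamini-Hochberg adjusted p = 0.0832). RARA passed with the library number as a block (adjusted p = 0.0281, edgeR). Its value rested on the reporter-positive libraries: without library 1 of that line it was -0.31 and passed (adjusted p = 5.27e-04, edgeR), and without library 2 it was -0.11 (adjusted p = 0.358, edgeR). RARG (ENSG00000172819, chromosome 12, 53210567 to 53232980) had 938 and 934 against 793 and 677 counts, or 14.8 and 15.2 against 12.6 and 12.9 CPM. Its log2 fold change was -0.23 with a 95% interval of -0.42 to -0.04 (edgeR, Benjamini-Hochberg adjusted p = 0.0707). RARG passed with scaling to total counts (adjusted p = 0.0355, edgeR), with the block (adjusted p = 0.0379, edgeR) and without reporter-positive library 2 (adjusted p = 0.0499, edgeR). For both genes the interval of the single gene excluded 0 while the value adjusted over all genes missed 0.05.

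Per kb of span, RARB made up 0.744% ± 0.00109 of the sum over the 3 receptors in the reporter-negative and 1.87% ± 0.0483 in the reporter-positive line (SD, n = 2). Per kb of annotated exon the same share was 10.3% ± 0.0920 and 22.6% ± 0.0482 (SD, n = 2). RARA and RARG together held the rest, and RARA led RARG by either length in both lines. The rise of RARB therefore left it the least abundant of the 3 per kb of span, whereas per kb of exon it differed from RARG in the reporter-positive line by less than the spread of RARG (21.2% ± 1.87; SD, n = 2). These shares describe the libraries and were chosen after the values were seen.

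RARRES1 (ENSG00000118849, chromosome 3, 158696892 to 158732696), a membrane protein gene named for its induction by retinoids, had 80 and 84 counts in reporter-negative and 92 and 65 in reporter-positive libraries. At 1.26 and 1.37 against 1.46 and 1.24 CPM the lines overlapped, with a log2 fold change of 0.05 and a 95% interval of -0.45 to 0.54. MFSD1, a transporter gene at 44.2 and 44.4 CPM, shares 499 bases of its span, and reads there count at both genes. An antisense gene, ENSG00000240207, shares 434 bases of the RARRES1 span and had 153.9% as many counts as RARRES1. MFSD1 had 3308% as many, so the level of RARRES1 alone is uncertain in both lines.

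**Figure D2:**
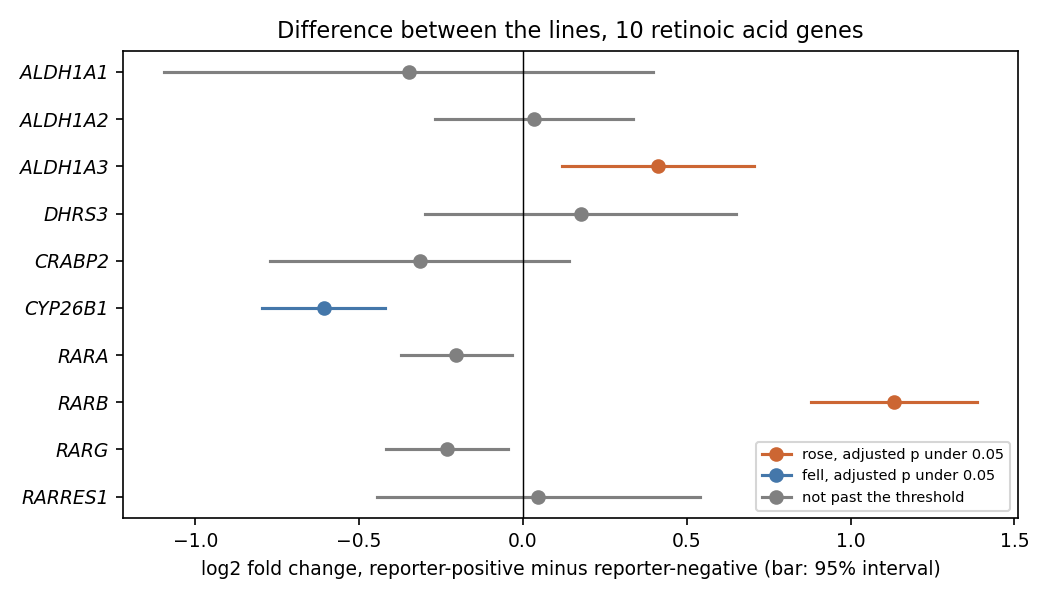
Log2 fold change of each gene, reporter-positive minus reporter-negative, with its 95% interval from the edgeR fit, orange for genes that rose, blue for genes that fell and grey for genes not past the threshold. RARB at 1.13 and CYP26B1 at -0.61 lie clear of 0, ALDH1A3 at 0.41 is closer, and the widest interval belongs to ALDH1A1.

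By level per kb of gene span, CYP26B1 came first in the reporter-negative line at 0.941 ± 0.0384, followed by RARA at 0.747 ± 0.0282, RARG at 0.669 ± 0.0137 and CRABP2 at 0.330 ± 0.0670 CPM per kb (SD, n = 2). In the reporter-positive line RARA at 0.649 ± 0.0676 and CYP26B1 at 0.616 ± 0.0277 CPM per kb overlapped (SD, n = 2), and RARG followed at 0.570 ± 0.00929. ALDH1A3 came next after CRABP2 in both lines, at 0.108 and 0.145 CPM per kb, and RARRES1, DHRS3, RARB, ALDH1A2 and ALDH1A1 were all below 0.05 CPM per kb. RARB and DHRS3, adjacent in this order, were apart in the reporter-negative line and closer in the reporter-positive line (0.0233 and 0.0300 CPM per kb). Per kb of annotated exon RARA led in both lines, at 7.65 and 6.64 CPM per kb, and RARB had 1.22 and 2.66, in the reporter-positive line close to RARG at 2.49.

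**Figure D3:**
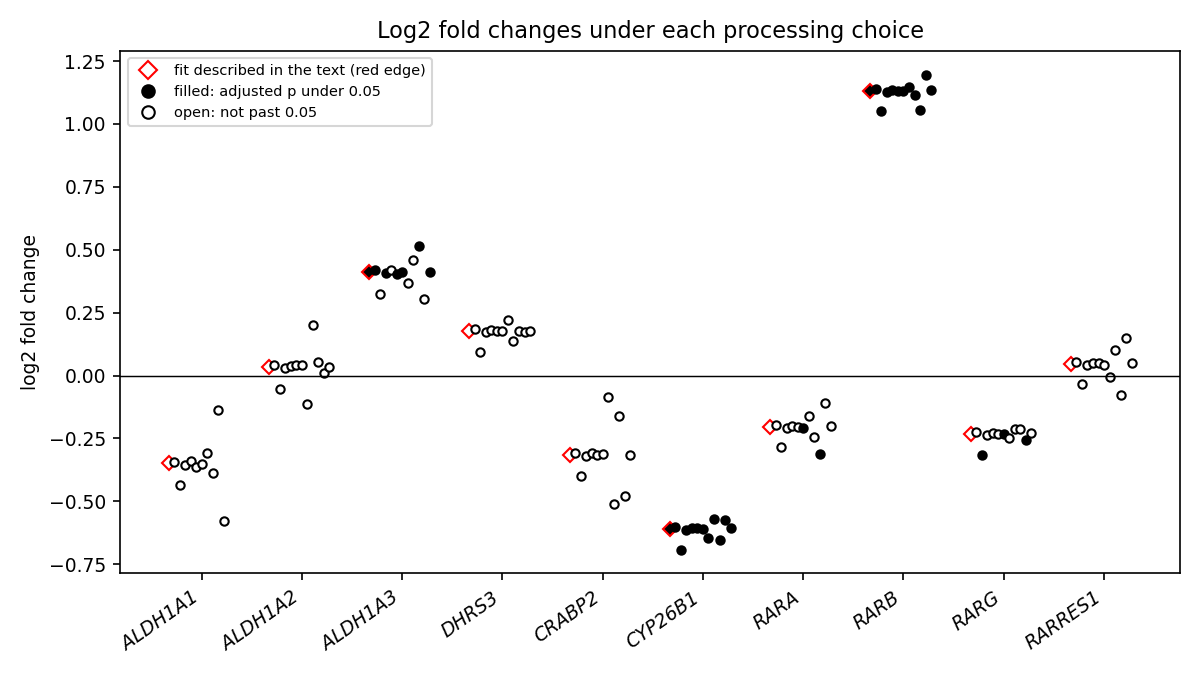
Log2 fold change of each gene under every processing choice, filled where the adjusted p was under 0.05 and open otherwise, with a red edge for the fit described in the text. All RARB and CYP26B1 points are filled, ALDH1A3 is a mixture, and ALDH1A2 and RARRES1 straddle 0.

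Genes near the 3 called ones were also compared. Within 1 Mb of RARB, 9 other genes were tested and THRB alone passed. THRB (ENSG00000151090, chromosome 3, 24117153 to 24495756), the thyroid hormone receptor beta gene and a nuclear receptor that also pairs with RXR, lies on the opposite strand at -679 kb from RARB (negative for upstream). It had 597 and 516 counts in reporter-negative and 1137 and 918 in reporter-positive libraries, or 9.40 and 8.40 against 18.1 and 17.5 CPM. Its log2 fold change was 1.00 with a 95% interval of 0.80 to 1.20 (edgeR, Benjamini-Hochberg adjusted p = 1.05e-07), close in size to that of RARB, and THRB was named after its values were seen. The median of the 9 neighbours was -0.07. None of the 9 changed by more than RARB upward, and OXSM and NGLY1, the more highly counted of those after the gene, had 11.4 and 32.5 CPM on average in reporter-negative and 9.69 and 31.0 CPM in reporter-positive cells.

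Around CYP26B1, 1 of 15 tested neighbours rose and 2 fell, where 11.6% of all tested genes were called higher and 10.9% lower, and the median log2 fold change was -0.11. The membrane repair gene DYSF rose from 25.7 to 34.99 CPM, and RAB11FIP5 fell from 108 to 87.5 CPM. The nearest, EXOC6B at -27.9 kb, had 44.4 and 44.5 CPM. Around ALDH1A3, 3 of 25 rose and none fell, with a median of 0.07, and ALDH1A3 had a larger rise than 24 of the 25. Around ALDH1A2, 13 of 24 neighbours fell and 1 rose, with a median of -0.33. ALDH1A2 itself did not pass, and 18 of its 24 neighbours had a lower log2 fold change than it. The part that neighbouring genes play in any of these values was not tested.

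**Figure D4:**
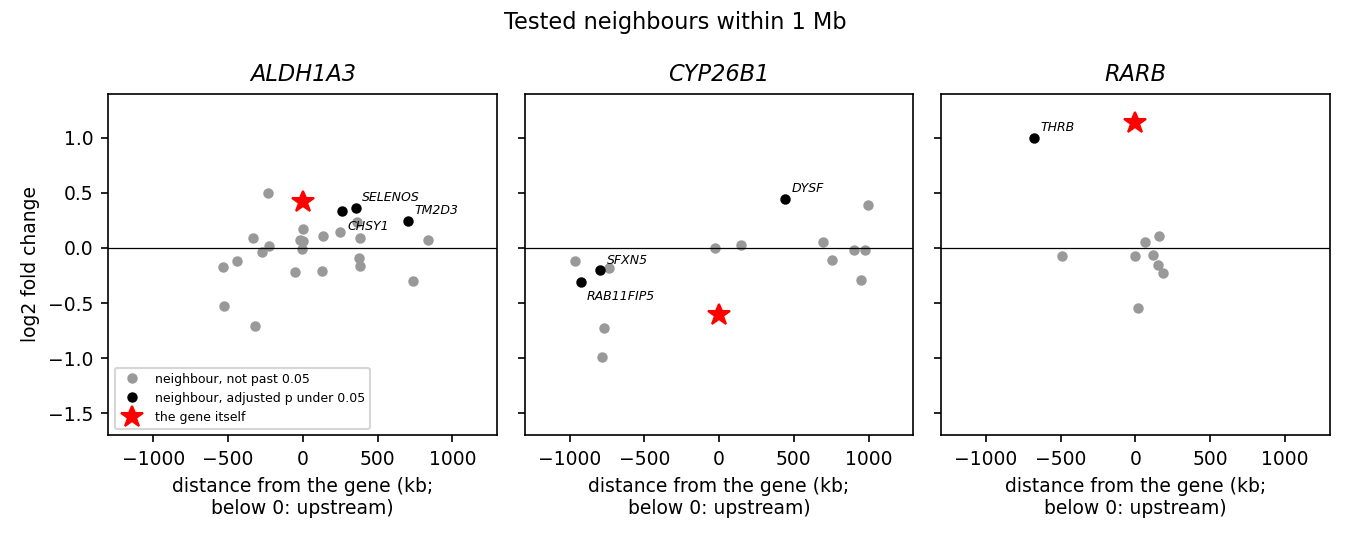
Log2 fold change of tested genes within 1 Mb of ALDH1A3, CYP26B1 and RARB against their distance in kb, upstream below 0, with the gene itself as a red star and neighbours past the threshold in black with their names. Beside RARB only THRB is black and it stands at nearly the same height, while the nearest neighbours of CYP26B1 lie near 0.

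Other genes of the pathway were taken from a list of 64, of which 53 were tested. Of these 12 rose, 12 fell and 29 did not pass, with a median log2 fold change of -0.02. The 24 called are 45.3% of the 53 tested, where 22.4% of all tested genes were called. In a fit restricted to genes with at least 1 CPM in 2 libraries, 19 of 37 tested genes of the list were called (51.4%). Of all genes in that fit 31.0% were called. The list was chosen with earlier results of these data known, so these shares are a description.

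For uptake and storage, 6 of 8 listed genes were tested, of which 1 rose and 2 fell. The shares of all tested genes were 11.6% higher and 10.9% lower. STRA6, the cell surface receptor for retinol bound to its plasma carrier, fell from 0.587 ± 0.229 to 0.189 ± 0.110 CPM (SD, n = 2), with an edgeR adjusted p (Benjamini-Hochberg) of 0.0156. The values rest on 27, 46, 7 and 14 counts, and CCDC33, whose span overlaps, had more counts than STRA6. The filter on low counts can admit a gene through its higher line alone, which applies to STRA6. Its 7 counts in reporter-positive library 1 were under the filter's minimum count of 10. The call was lost without reporter-negative library 2 or reporter-positive library 1 (adjusted p = 0.202 and 0.118, edgeR). RETSAT, a retinol saturase, fell from 53.1 ± 0.421 to 39.6 ± 0.362 CPM (SD, n = 2). LRAT, which stores retinol as an ester, rose from 2.05 ± 0.0255 to 2.97 ± 0.308 CPM (SD, n = 2), with an edgeR adjusted p (Benjamini-Hochberg) of 0.0399. Leaving out either reporter-negative library or reporter-positive library 1 removed that call (adjusted p from 0.153 to 0.188, edgeR), as did scaling to total counts (0.135) and DESeq2 (0.126).

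Among 14 retinol and retinal oxidoreductases none rose, 2 fell and 12 did not pass. Of all tested genes 11.6% were called higher and 10.9% lower. AKR1C3, an aldo-keto reductase that can turn retinal back to retinol and also acts on steroids and prostaglandins, fell from 24.8 ± 0.346 to 12.1 ± 0.0286 CPM (SD, n = 2), with an edgeR adjusted p (Benjamini-Hochberg) of 9.25e-09. Its sequence is close to those of other AKR1C genes, so reads may be shared. SDR16C5, a retinol dehydrogenase, fell from 6.88 ± 0.0872 to 3.12 ± 0.128 CPM (SD, n = 2), with an edgeR adjusted p (Benjamini-Hochberg) of 2.93e-06. RDH10, a retinol dehydrogenase needed in the embryo whose span overlaps RPL7, had 10.7 ± 0.715 and 9.17 ± 0.263 CPM (SD, n = 2) and did not pass. Of 4 related aldehyde dehydrogenases, ALDH1L1, a folate enzyme, rose from 2.33 and 2.13 to 4.55 and 2.61 CPM. The rise rests on reporter-positive library 1: without it the log2 fold change of ALDH1L1 went from 0.69 to 0.23 (edgeR, Benjamini-Hochberg adjusted p = 0.512).

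FABP5, which carries retinoic acid to PPARD rather than to the RAR proteins and also binds fatty acids, fell from 4.15 ± 0.0269 to 2.56 ± 0.156 CPM (SD, n = 2), with an edgeR adjusted p (Benjamini-Hochberg) of 0.00296. CRABP1, the other carrier listed, was too low to test. Of 4 receptor partners 3 were tested and 2 of these fell, where 10.9% of all tested genes were called lower. RXRA, a partner of the RAR proteins and of THRB, had 58.1 and 56.8 CPM in reporter-negative and 36.5 and 33.8 CPM in reporter-positive libraries. Its log2 fold change was -0.71 with a 95% interval of -0.86 to -0.55 (edgeR, Benjamini-Hochberg adjusted p = 3.74e-07). RXRB had 33.0 and 34.4 against 27.3 and 23.3 CPM (edgeR, Benjamini-Hochberg adjusted p = 9.31e-04), and SLC39A7, which overlaps 244 bases of it, had several times as many counts. In both genes all reporter-positive libraries were below all reporter-negative ones, and RXRG was too low to test. RARB and RXRA, a partner of the RAR proteins, thus moved in opposite directions, and both calls held under all 11 other choices.

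Coregulators moved both ways, with 3 of 9 higher, 5 lower and 1 not past the threshold. Among all tested genes 11.6% were called higher and 10.9% lower. NRIP1, a corepressor that binds hormone-bound receptors and is itself induced by retinoic acid, rose from 24.5 ± 0.782 to 45.7 ± 2.49 CPM (SD, n = 2), with an edgeR adjusted p (Benjamini-Hochberg) of 2.38e-08. ENSG00000235609 overlaps NRIP1 on the same strand, had 98.1% as many counts and rose as well. NCOR1, a corepressor of receptors without hormone, rose from 138 ± 1.66 to 213 ± 3.49 CPM (SD, n = 2). TTC19, which overlaps NCOR1 and had 49.5% as many counts, rose too, from 62.1 to 112 CPM. TRIM24 rose 1.31-fold, a call lost without reporter-negative library 2 (edgeR, Benjamini-Hochberg adjusted p = 0.104), and the coactivator gene NCOA2 fell from 35.01 ± 1.58 to 26.8 ± 0.802 CPM (SD, n = 2).

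Of 21 genes listed as responding to retinoic acid, 15 were tested, of which 7 rose, none fell and 8 did not pass. The other 6 were too low to test. Of all tested genes 11.6% were called higher and 10.9% lower. The 10 genes described first were not part of this list: of these RARB rose, CYP26B1 fell and RARRES1 did not pass. Each pathway gene was listed under a single role, STRA6, which fell, under uptake and NRIP1, which rose, under coregulators. The counts by direction depend on this sorting into roles. The filter can admit a low gene through its higher line alone, which applies to FOXA1, and many of the listed genes respond to other signals as well. RARRES2 rose from 13 and 10 to 28 and 34 counts, and LCN2 from 14 and 19 to 59 and 31. The span of RARRES2 overlaps a gene with more counts. TGM2, a protein crosslinking enzyme, rose from 168 ± 3.82 to 252 ± 7.82 CPM (SD, n = 2), with an edgeR adjusted p (Benjamini-Hochberg) of 4.31e-06. IGFBP3, which binds insulin-like growth factors, rose from 42.5 ± 1.53 to 64.0 ± 5.81 CPM, and GPRC5A, an orphan receptor first found as induced by retinoic acid, rose from 88.8 ± 0.684 to 123 ± 3.57 CPM (SD, n = 2). FOXA1, a pioneer factor of luminal breast cells, rose from 7 and 4 to 33 and 51 counts, and TTC6, which overlaps 213 bases of it, had more counts and rose as well. Of the homeobox genes that are classical targets in the embryo, HOXA4, HOXA5 and HOXB2 had at most 5 counts in any library. HOXB4 had 84 and 63 against 133 and 67 counts and did not pass (log2 fold change 0.54; edgeR, Benjamini-Hochberg adjusted p = 0.159), and its span overlaps HOXB3, which had more counts. MEIS1 and MEIS2, also homeobox genes, did not pass: MEIS1 averaged 4.89 CPM in reporter-negative and 4.92 CPM in reporter-positive cells, and MEIS2 averaged 11.7 and 11.8 CPM.

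**Figure D5:**
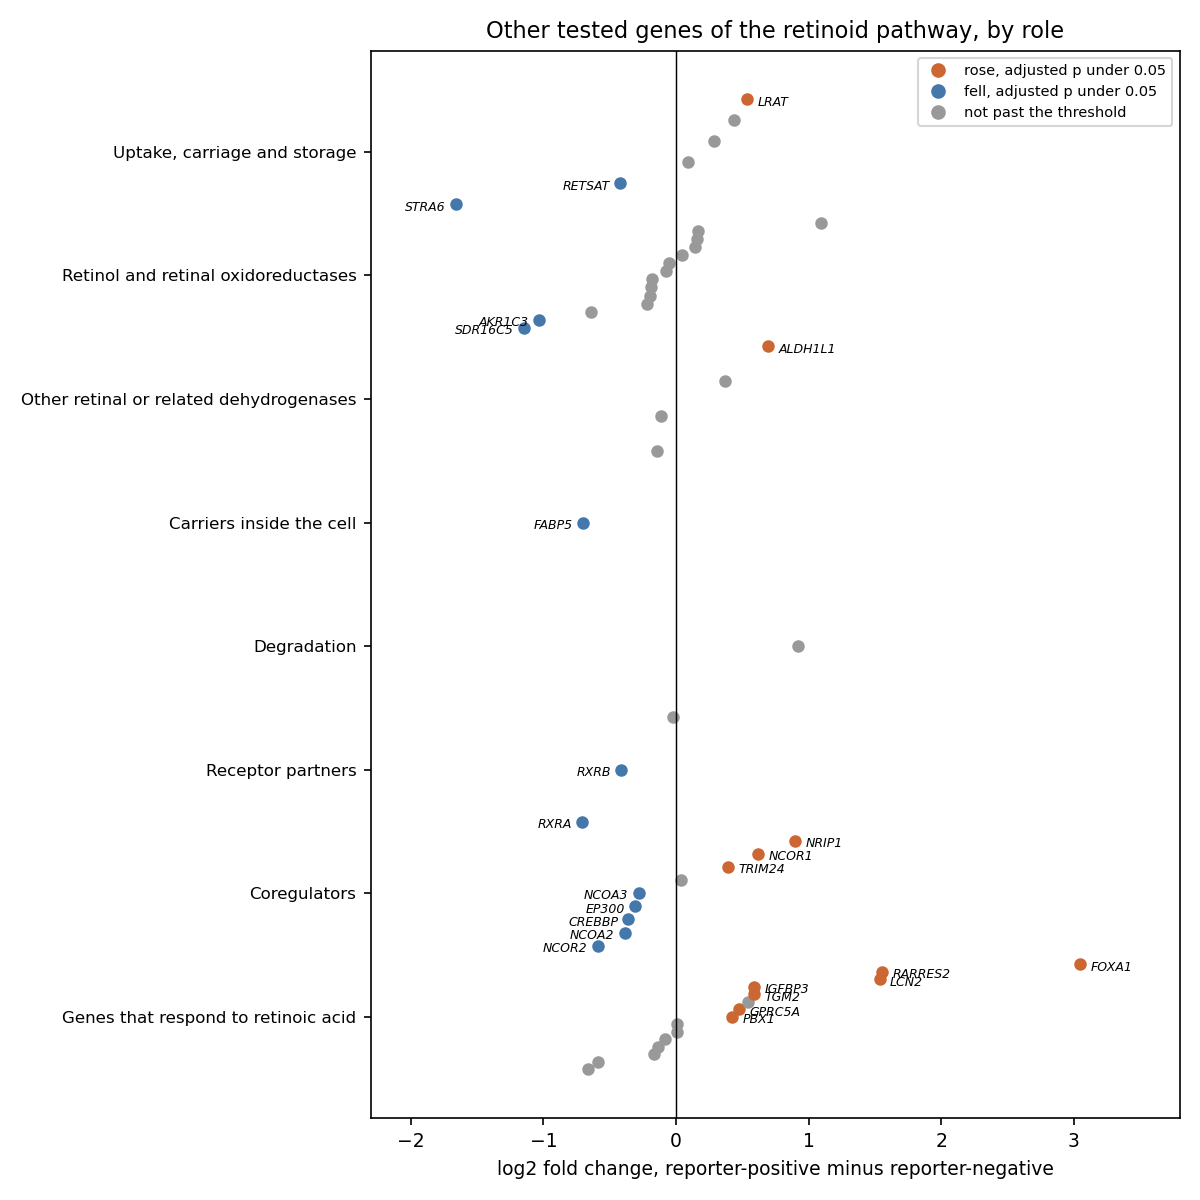
Log2 fold change of the 53 other tested pathway genes by role, reporter-positive minus reporter-negative, orange for genes that rose, blue for genes that fell and grey for genes not past the threshold, with names for those that passed. Called receptor partners and oxidoreductases lie below 0, called genes of the response list above 0, and coregulators on both sides.

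Across the whole table, libraries held 55894092 to 63034563 counts, and 3576 genes were higher and 3366 lower. Of the calls 51.5% were higher, a share that became 36.0% when libraries were scaled to total counts, a choice that shifts the median of all genes by -0.08 on the log2 scale. The labelled difference between the lines was visible in AXIN2, a general Wnt target, which rose from 11.4 to 18.5 CPM. ENSG00000266076 overlaps AXIN2 on the same strand and had 62.1% as many counts. It too had more counts in the reporter-positive libraries (757 and 552) than in the reporter-negative ones (455 and 451). VIM, AXL, FN1, CD44 and ZEB1, listed as genes expected in a mesenchymal-like breast line, stood at 125 to 2670 CPM in either line. VIM fell from 2670 to 1300 CPM. Luminal and epithelial markers were low, with PGR and CDH1 averaging under 1 CPM and ESR1, EPCAM and GRHL2 under 6 CPM in each line. Among blood cell markers CD68 and LYZ fell, PTPRC did not pass, and CD3E had at most 7 counts in a library. None of 3 endothelial markers passed, with PECAM1 averaging 81.0 CPM in reporter-negative and 67.4 CPM in reporter-positive cells. Of 5 fibroblast markers LUM rose and PDGFRB fell. Both lines are sorted cultures of an established line, and the source of these marker reads was not tested. With 1 line per reporter state, a difference that arose during sorting or in a clone and reporter activity cannot be told apart, and fewer expressing cells and less RNA per cell cannot be told apart either. Whether a line's libraries came from separate cultures is not labelled, so p-values measure only how far these libraries spread, and that spread may be technical.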

How the data were processed

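Each line gave 2 RNA-seq libraries (NEB Ultra II kit, per the labels' protocols). The authors deposited raw counts for each Ensembl gene in each library; HISAT2, Bowtie2, DESeq2 and build hg19 are named, per the submitters' processing notes, with no role or version. How reads were counted, and with which strand setting, is not given in the sources used here. GENCODE release 29 (GRCh38) holds all 43714 IDs and gave positions. In 3079 of 3079 cases where a gene with at least 100 counts lies inside a host without sharing an exon, 1844 of them on the opposite strand, the host had at least as many counts in all 4 libraries. Counts thus cover whole spans on both strands.

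The test was edgeR's robust quasi-likelihood F test (edgeR 4.0.16, R 4.3.3) of line alone, on TMM-scaled counts of the 30952 genes that filterByExpr kept (minimum count 10, total 15), with Benjamini-Hochberg adjustment. Standard errors and 95% intervals came from the F statistic and its degrees of freedom. On 1 simulated data set the share of false calls was above the nominal rate of the threshold and many changes of the smallest size were missed. Other choices tried were scaling by RLE or total counts, no filter, 1 CPM in 2 libraries, DESeq2 1.42.0, limma-voom (limma 3.58.1), the library number as a block, each library left out, overlapping genes' counts taken off (not below 0, and including reads outside the shared stretch), and exon length. Within each line, counts of the libraries varied beyond sampling noise (chi-square over its degrees of freedom, 37.0 and 19.3). Of 66 listed pathway symbols, STRA6LP matched 2 IDs and was left out, and RARRES3 is PLAAT4. Up to 4 pathway genes per role with the smallest adjusted p were named, or the 2 with the highest CPM where none passed. RDH10, CRABP1, RXRG, RARRES2, LCN2, the HOX and MEIS genes, THRB and other neighbours were named after their values were seen. The 10 genes and the lists were chosen with earlier results of these data known. Start windows came from RefSeq (GRCh38.p14).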

Additional observations from a re-analysis of the deposited data

How the results depend on the processing

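RARB, CYP26B1, RXRA, RXRB, AKR1C3, SDR16C5, NRIP1, NCOR1 and THRB kept their direction and call under each of the 11 choices of scaling, filter, tool, block and left-out library. For the 10 genes, 97 of 113 values kept direction and side of the threshold, 5 lost a call (all for ALDH1A3), 5 gained one (RARA and RARG) and 6 changed sign. Those 6 were ALDH1A2 with total counts (-0.053), without reporter-negative library 1 (-0.115) and with overlapping genes taken off (-0.20), and RARRES1 with total counts (-0.035), without reporter-negative library 1 (-0.0073) and without reporter-positive library 1 (-0.079), on the log2 scale and none past the threshold. Leaving out single libraries gave -0.115 to 0.199 for ALDH1A2 and -0.079 to 0.150 for RARRES1. Of the 10 genes, 1 rose and 2 fell with total counts, where 20.4% of all tested genes were called. With DESeq2 1 rose and 1 fell, where 12.4% of all tested genes were called. Leaving out single libraries gave 1 to 2 that rose and 1 to 2 that fell. With the library number as a block 2 rose and 3 fell, where 26.6% of all tested genes were called. Same-numbered libraries did not deviate together (correlation of deviations -0.03 over 30952 genes), so the numbers were not taken to pair the libraries. Over all genes, 2270 rose with total counts, and leaving out single libraries gave 2333 to 4704 higher and 2025 to 4457 lower genes. DESeq2 gave no adjusted p for STRA6, CYP26C1 and FOXA1, ALDH1A1 had too few counts for the filter at 1 CPM, and no value was fitted for ALDH1A3 and CRABP2 with overlapping genes taken off, a subtraction that removes too much where those genes extend further or share reads. The intervals were widest for ALDH1A1, DHRS3, CRABP2 and RARRES1, which had the fewest counts of the 10 genes. What set these widths was not tested.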
